A study of Mus musculus with 24 samples.

Results

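The genes described here encode proteins of the mitochondrial ribosome, the particle inside mitochondria that translates the messenger RNAs of the mitochondrial genome. They were chosen by name, as every gene whose symbol is Mrpl or Mrps followed by a number, and 77 of the 21793 rows of the deposited table qualified, of which 48 were Mrpl and 29 Mrps genes. All 77 are annotated as protein-coding genes in GENCODE release 21 for mouse, and they lie on 17 chromosomes.

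RNA had been sequenced from the hippocampus of 24 female mice, with 12 wild-type (WT) and 12 3xTg-AD animals. 3xTg-AD is a transgenic mouse model of Alzheimer's disease that carries human APP and tau transgenes under Thy1 regulatory sequence, which is active mainly in neurons. Mice were 3 months old when the diets began and ate them over 6 months. On the control diet were 4 WT and 3 3xTg mice, and its make-up was carbohydrate at 70%, triglycerides of long chain at 20% and protein at 10%. The carbohydrate-free ketogenic diet held 90% long-chain triglycerides and 10% protein, and was given to 4 WT and 5 3xTg mice. In the MCT diet medium-chain triglycerides made up 10%, long-chain triglycerides 10%, protein 10% and carbohydrate 70%, and 4 WT and 4 3xTg mice received it. The comparisons address how genotype and each diet relate to hippocampal expression.

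Mitochondrial ribosomes make only the membrane subunits of the respiratory chain and ATP synthase that the mitochondrial genome encodes, and all of their proteins are encoded in the nucleus and imported. Some of these proteins have counterparts in bacterial ribosomes, and others were added during mitochondrial evolution. Neurons depend heavily on oxidative phosphorylation, and inherited defects of mitochondrial ribosomal proteins cause respiratory chain deficiency, often with effects on the brain.

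The deposited values were normalised counts, and they could be converted back to whole reads. 1 library, 3xTg ketogenic replicate 2, held 2653427 reads, and the others held 10078435 to 25810846. Thy1 counts take in the mouse's own gene in both genotypes, besides any reads of the transgenes' Thy1 sequence. They lay between 6952 and 8137 normalised counts in 11 WT libraries and between 20385 and 29277 in 10 3xTg libraries. The library labelled 3xTg control replicate 3, at 9189, the library labelled 3xTg ketogenic replicate 1, at 8112, and the library labelled WT MCT replicate 2, at 23048, went against their genotype labels. Groups below are as labelled, and results are also given without these 3 libraries. Markers of dentate granule cells and of CA1 and CA3 pyramidal neurons were detected in every library, among them Prox1 at 1673 normalised counts or more and Wfs1 at 1072 or more.

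Promoters are shown for the 4 genes that passed the test between genotypes, beside the motif content of all the members. RefSeq promoters were matched for 69 of the 77 genes; Mrpl4, Mrpl13, Mrpl19, Mrpl38, Mrpl54, Mrps28, Mrps34 and Mrps35 had none matched. The sequences below are the 120 bases before the RefSeq start, from build GRCm38.p6, written 5′ to 3′ on the gene's strand. They are Mrpl3 at chr9:105053148-105053267 on the plus strand, Mrpl9 at chr3:94443216-94443335 on the plus strand, Mrpl41 at chr2:24975099-24975218 on the minus strand and the most upstream of the starts of Mrpl48 at chr7:100608302-100608421 on the minus strand. Capitals mark the ETS-family letters CCGGAAG in Mrpl3 and the NRF1 palindrome in Mrpl9. Another start of Mrpl48, whose stretch at chr7:100583131-100583250 is not shown, has the ETS-family letters as their reverse complement CTTCCGG.
Mrpl3: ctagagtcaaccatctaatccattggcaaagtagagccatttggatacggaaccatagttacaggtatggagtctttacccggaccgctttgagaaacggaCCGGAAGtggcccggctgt
Mrpl9: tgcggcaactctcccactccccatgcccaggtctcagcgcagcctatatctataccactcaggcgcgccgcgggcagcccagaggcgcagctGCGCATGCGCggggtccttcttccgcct
Mrpl41: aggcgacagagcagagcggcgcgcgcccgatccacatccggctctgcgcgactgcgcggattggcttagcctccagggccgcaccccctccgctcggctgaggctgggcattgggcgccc
Mrpl48: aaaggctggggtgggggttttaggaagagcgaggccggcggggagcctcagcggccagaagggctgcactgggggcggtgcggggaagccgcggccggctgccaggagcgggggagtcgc

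Over the 250 bases before the start, on both strands, CCGGAAG occurred in 18 of the 75 promoters of these genes (24%). The share was 6.91% of all 32851 mouse promoters and 11.96% of the 14362 promoters of genes that were tested here. CCGGAAG is the core recognised by ETS factors such as GABPA, also called NRF2, a known regulator of nuclear genes for mitochondrial proteins. The palindrome bound by NRF1, another such regulator, consists of GCGCATG overlapping its own reverse complement CATGCGC. It occurred in 3 promoters (4%), against 0.782% of all promoters and 1.49% of those of tested genes. GCGCATG alone, counted also where it is part of the palindrome, was in 10.7%, against 5.25% for tested genes. AAGATGGC, the YY1 motif, was in 5.33% against 1.76%. The SP-family box GGGCGG was in 49.3% of the members' promoters and 55.8% of those of tested genes, and CCAAT was in 37.3% against 34.8%. Median GC content was 58.4% for the members and 59.6% for tested genes. These are matches of letters in a window and not measured binding.

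A gene on the opposite strand started upstream of, and within 1000 bases of, the start of 18 of the 77 genes (23.4%), against 9.30% of the 13977 other tested protein-coding genes. Such pairs included Mrpl49 with Fau, whose starts lie 59 bases apart, Mrpl32 with the proteasome gene Psma2, 75 bases apart, and Mrps12 with the mitochondrial seryl-tRNA synthetase gene Sars2, 172 bases apart. Pairs whose 5′ ends overlap, such as Mrpl46 and Mrps11, are not in this count. Strand use in the counting is not given in the sources used here, so reads from genes that overlap cannot be told apart. Exons of 33 of the 77 genes overlapped another gene, and over 25% of exon bases were overlapped in 7 of them: Mrpl19, Mrpl24, Mrpl43, Mrpl53, Mrps18b, Mrps25 and Mrps34.

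Nearly all of the 77 genes were well expressed. Together they made up 0.184% to 0.213% of all normalised counts in a library, and 76 reached the filter of 10 normalised counts in at least 3 libraries. The exception was Mrpl53, a mitochondria-specific protein of the large subunit, with 6 reads over all 24 libraries, found in 5 of them. Other genes overlapped 88.0% of its exon bases, among them Gm42688 on the same strand. Whether reads of Mrpl53 were left out or counted elsewhere was not tested, so its count may not show its level. Levels between genes were compared as mean normalised count per kb of exon, with exons merged over the coding transcripts of each gene. On that scale the median over all 77 genes was 203 per kb and the quartiles were 149.7 and 313 per kb. The median was 205 per kb for large-subunit proteins with a bacterial counterpart, 207 for mitochondria-specific large-subunit proteins, 208 for small-subunit proteins with a counterpart and 153 for mitochondria-specific small-subunit proteins. These classes are as assigned here, with Mrpl55 counted as mitochondria-specific, and other assignments were not tried.

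The highest levels per kb were those of Mrpl42 at 752, Mrps21 at 712 and Mrpl30 at 606, followed by Mrpl41 at 605. The lowest among genes that passed the filter were Mrpl23, counterpart of a bacterial protein at the exit tunnel, at 44.6 per kb, and Mrpl17 at 50.4. The order depended on the exon set: with all annotated exons Mrpl42 was 36th and Mrpl30 22nd, while Mrps21 stayed 2nd and Mrpl23 76th. Mrpl12, the stalk protein that also binds the mitochondrial RNA polymerase, was at 352 per kb. Mrps12, at the decoding centre, was at 239, and Mrps5 at 133. Mrpl45, which anchors the ribosome to the inner membrane, was at 201 per kb, the pentatricopeptide-repeat protein gene Mrps27 at 184, and Mrpl58, a peptidyl-tRNA hydrolase built into the large subunit, at 160.

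The 3 mitochondrial S18 genes differed in level per kb. Mrps18a, whose protein sits in the large subunit despite its name, was at 405, against 150 for Mrps18c and 114 for Mrps18b. Mrps30, another protein of the large subunit, was at 114. Mrps36, now known as a component of the 2-oxoglutarate dehydrogenase complex and not of the ribosome, was at 147 per kb. The order of the S18 genes also depended on the exon set. With all annotated exons Mrps18c was at 131 per kb, and Mrps18a, with 3690 exon bases, lay below it.

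**Figure D1:**
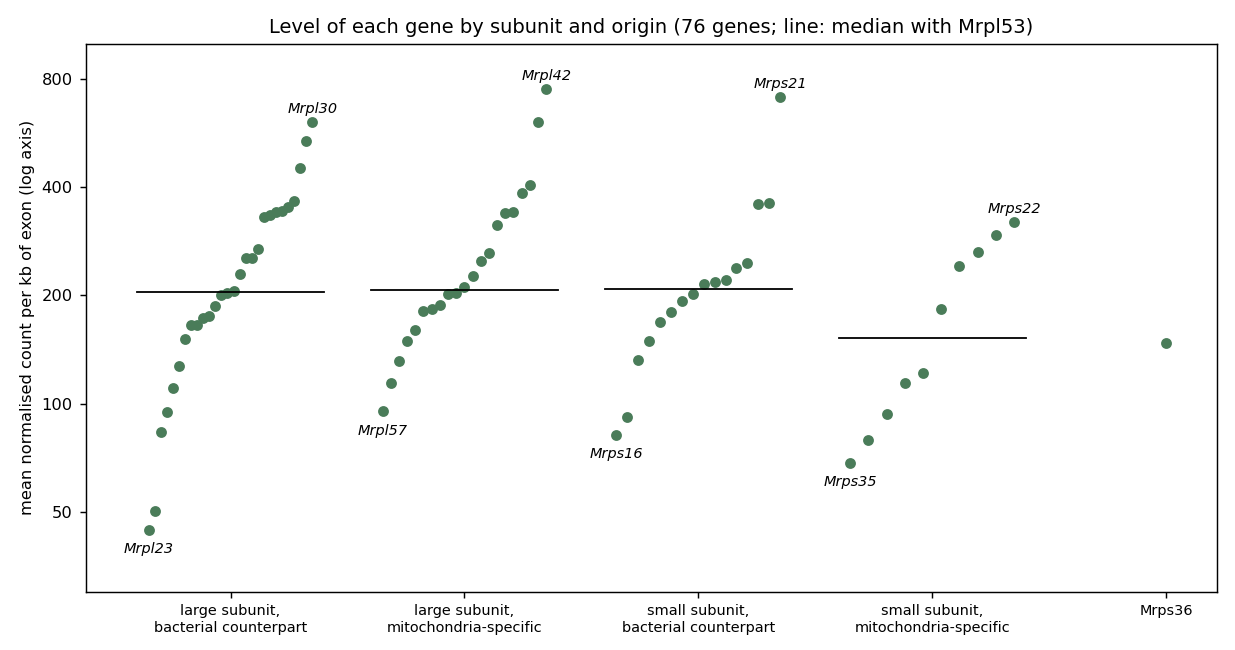
Mean normalised count per kb of exon over 24 libraries, on a log axis, for each of the 76 genes that passed the filter, sorted within 4 classes of ribosomal protein and with Mrps36 apart; the line is the class median, with Mrpl53 counted in, and the highest and lowest gene of each class are named. Levels run from 44.6 per kb for Mrpl23 to 752 for Mrpl42, and the classes overlap.

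Libraries of one group were close for most of these genes. The within-group SD on the log2 scale had a median of 0.12 over the 76 genes, and ran from 0.04 for Mrpl50 to 0.32 for Mrpl23. Mrpl50, a mitochondria-specific protein of the large subunit, averaged 799 ± 24.2 normalised counts in WT (SD, n = 12) and 826 ± 31.3 in 3xTg (SD, n = 12). The widest gap between any 2 of the 6 group means had a median of 0.18 on the log2 scale.

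Between genotypes, averaged over the 3 diets, 4 of the 76 genes passed the test, all higher in 3xTg and all encoding large-subunit proteins: Mrpl3, Mrpl48, Mrpl9 and Mrpl41. The test was limma on log2(normalised count + 1) over 14162 genes, with an adjusted p below 0.05. Over all genes 8.10% passed, 3.71% being higher and 4.38% lower in 3xTg, so 4 of 76 (5.26%) in that direction is near the background. At an unadjusted p below 0.05 the members numbered 11 higher and 2 lower (17.1%), below the 24.4% of all genes. In direction alone, 57 of 76 (75%) were higher in 3xTg, against 49.6% of all genes, and the median log2 difference was 0.04, against 0.00 over all genes. Without 3xTg control replicate 1 the median was 0.02.

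Mrpl3 (chr9:105053239-105079888) encodes the counterpart of bacterial L3, which reaches towards the peptidyl transferase centre. In WT it stood at 822, 842, 907 and 899.6 normalised counts on the control diet, at 819.6, 862, 928 and 879 on the ketogenic diet and at 879, 1060.5, 891 and 790.1 on the MCT diet. In 3xTg it stood at 1011, 1015 and 959 on the control diet, at 848, 1205, 1073, 1115 and 1138 on the ketogenic diet and at 1049, 1099, 1054 and 1157 on the MCT diet. The 2 libraries labelled 3xTg below 1000 counts, at 959 and 848, and the only WT library above that mark, at 1060.5, are the 3 whose Thy1 went against the label. The mean was 1060.3 ± 95.7 in 3xTg and 882 ± 69.4 in WT (SD, n = 12 each). The log2 difference was 0.26 ± 0.05 (SE), with a limma adjusted p of 0.00289, and 11 of 12 3xTg libraries lay above the WT mean.

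Mrpl48 (chr7:100545751-100608301) encodes a mitochondria-specific protein of the central protuberance. It had a lowest, median and highest normalised count of 459, 513 and 747 in WT and of 551, 702 and 763 in 3xTg. The WT libraries did not lie together: 8 lay between 459 and 519, and the others stood at 621 (control replicate 3), 648 (ketogenic replicate 1), 705 (MCT replicate 2) and 747 (MCT replicate 4). Of these only MCT replicate 2 had a Thy1 level against its label. The mean was 687 ± 66.3 in 3xTg and 551 ± 102 in WT, a log2 difference of 0.33 ± 0.07 (SE; limma adjusted p = 0.00705). All 12 3xTg libraries lay above the WT mean, and the ranges overlapped.

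Mrpl9 (chr3:94443318-94451130), which encodes the counterpart of bacterial L9, had a lowest, median and highest normalised count of 397, 468 and 598 in WT and of 482, 579 and 664 in 3xTg. The log2 difference was 0.25 ± 0.06 (SE; limma adjusted p = 0.0110), and 12 of 12 3xTg libraries lay above the WT mean. Mrpl41 (chr2:24974117-24975098), a mitochondria-specific protein of the large subunit, had a lowest, median and highest count of 389.9, 438 and 509.9 in WT and of 410.4, 502 and 582 in 3xTg. Its log2 difference was 0.16 ± 0.05 (SE; limma adjusted p = 0.0320). The call for Mrpl41 was lost when any 1 of 7 libraries was left out, with adjusted p up to 0.0960 without 3xTg control replicate 1; the others are 3xTg ketogenic replicate 4, 3xTg MCT replicates 2 and 3, WT ketogenic replicate 1 and WT MCT replicates 1 and 3. For both genes the ranges of the genotypes overlapped.

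**Figure D2:**
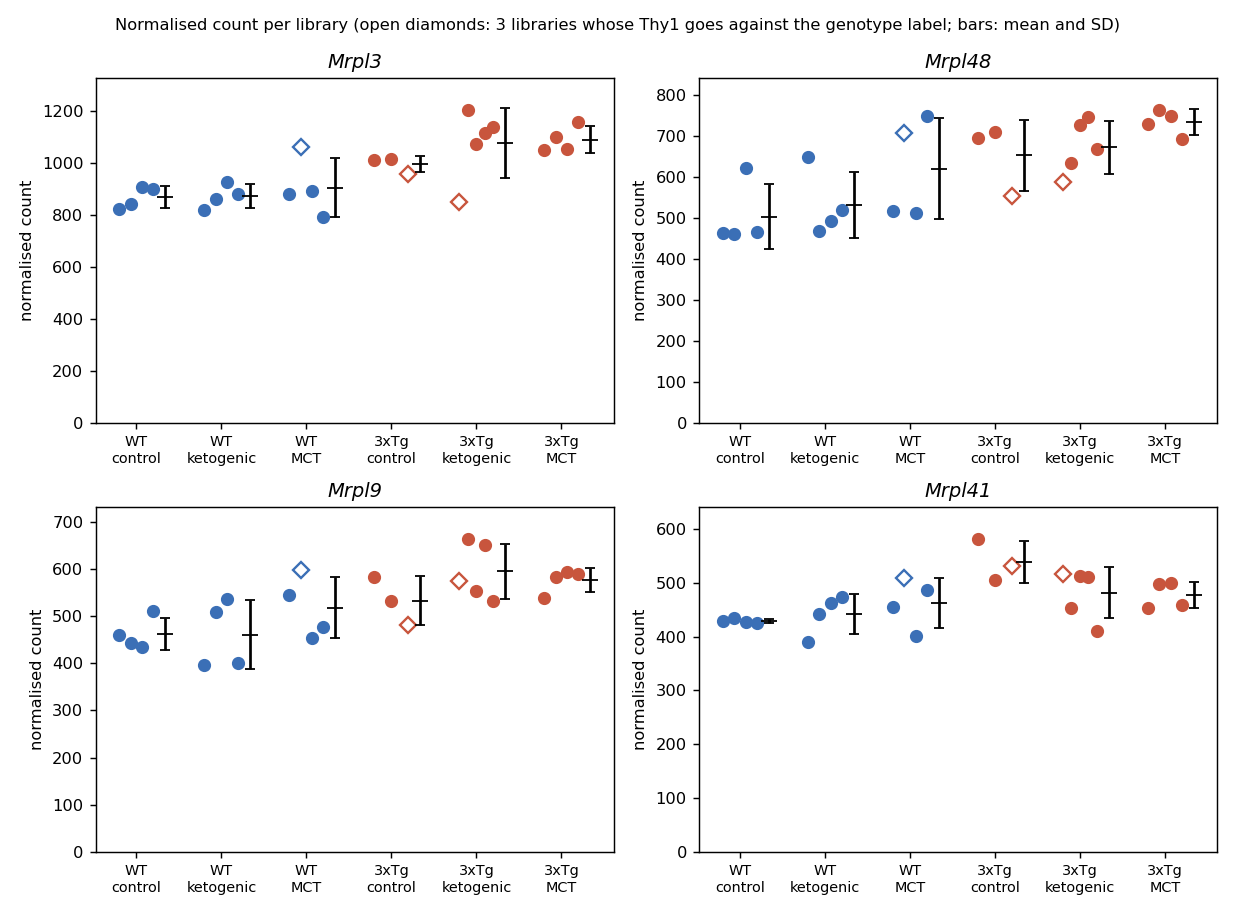
Normalised count in each library of Mrpl3, Mrpl48, Mrpl9 and Mrpl41 in the 6 groups; points are libraries, open diamonds are the 3 libraries whose Thy1 went against the label, and bars are the group mean and SD. Mrpl3 separates the genotypes except for the open diamonds, and 4 WT libraries of Mrpl48 stand at 621 to 747, apart from the other 8.

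Without the 3 libraries, limma on 21 libraries called 6 of 76 genes, against 13.2% of all genes. Mrpl3 then lay between 790.1 and 928 normalised counts in 11 WT libraries and between 1011 and 1205 in 10 3xTg libraries, with no overlap, which 0.678% of all genes showed in that direction. Its log2 difference was 0.32 ± 0.04 (SE; adjusted p = 1.35e-06). Mrpl48 was 0.41 higher, Mrpl9 0.30 and Mrpl41 0.17, with adjusted p of 0.000558, 0.00194 and 0.0255. Mrps22, a mitochondria-specific protein of the small subunit, was also called higher, at 0.16 ± 0.05 (SE; adjusted p = 0.0436). Mrps12 was called lower, with a mean of 198 ± 20.3 in 10 3xTg libraries and 244 ± 21.02 in 11 WT libraries and a log2 difference of -0.29 ± 0.07 (SE; adjusted p = 0.00553). With all 24 libraries Mrps12 differed by -0.19 ± 0.08 (SE; adjusted p = 0.118). Leaving out 1 library alone moved the count of members called to 8 without 3xTg ketogenic replicate 5 and to 7 without WT MCT replicate 2. The share of all genes called without either library is not given here, so these rises are not read as a result about the members.

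By class as assigned here, large-subunit proteins with a bacterial counterpart were higher in 3xTg for 22 of 28 genes. Mitochondria-specific large-subunit proteins, with Mrpl55 counted among them, were higher for 16 of 21. Both classes had a median log2 difference of 0.05. For small-subunit proteins with a bacterial counterpart it was 10 of 16 (median 0.00), and for mitochondria-specific ones 8 of 10 (median 0.02). The genes fixed by role other than Mrps12 differed by -0.06 (Mrps18a) to 0.08 (Mrps18b) on the log2 scale, and none passed the test.

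Other genes of mitochondrial gene expression were taken from lists of known components, and are read against the 8.10% of all genes called and the 24.4% with an unadjusted p below 0.05. Of 15 translation factors 14 were higher in 3xTg (93.3%, against 49.6% of all genes) and 1 passed (6.67%), Guf1, the mitochondrial relative of the elongation factor LepA, at 0.24 ± 0.07 (SE; adjusted p = 0.0217). Of 22 ribosome assembly genes, 20 mitochondrial tRNA synthetases and 5 other ribosomal subunits none passed limma, and 4 (18.2%), 4 (20%) and 0 had an unadjusted p below 0.05. Of 11 genes for copying and transcribing mitochondrial DNA, 2 passed (18.2%), both lower in 3xTg. These were Polg, the mitochondrial DNA polymerase, at -0.19 ± 0.05 (SE; adjusted p = 0.0141), and Twnk, the replicative helicase, at -0.17 ± 0.05 (SE; adjusted p = 0.0366). Twnk overlaps Mrpl43 on the opposite strand. None of 10 known transcriptional regulators of mitochondrial genes passed, and 1 (10%) had an unadjusted p below 0.05.

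Markers of several cell types also differed between the genotypes averaged over diets. limma called 3 of 5 dentate granule cell markers and 2 of 5 endothelial markers lower in 3xTg, and 3 of 6 oligodendrocyte, 2 of 5 astrocyte and 2 of 6 interneuron markers higher. Also called lower were Wfs1 of CA1 (-0.35), Cpne4 of CA3 (-0.24), Camk2a of excitatory neurons (-0.20) and Rgs9 of striatum (-0.51). The microglia marker Tmem119 was called higher (0.30). The summed level of the dentate granule markers was 3190 to 4290.1 normalised counts in 3xTg and 3970.4 to 5614 in WT, and that of the oligodendrocyte markers 61254 to 82222 and 49412 to 81325. The ranges of the genotypes overlapped for the summed level of all 11 marker lists. The part of these in the result was not tested.

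On the control diet alone, none of the 76 genes passed limma, and 0.0565% of all genes did. edgeR's quasi-likelihood test on the recovered reads also called none, and DESeq2 called 1, Mrpl41 (adjusted p = 0.0240). The 0.0565% is limma's, and DESeq2's own share of all genes on this diet is not given here. In direction, 66 of 76 genes (86.8%) had the higher mean in 3xTg, against 48.3% of all genes, and their median log2 difference was 0.09, against -0.01 over all genes. Unadjusted p was below 0.05 for 12 higher and 1 lower gene (17.1%), against 14.5% of all genes. Every 3xTg library was above every WT library for 12 genes (Mrpl3, Mrpl10, Mrpl11, Mrpl21, Mrpl28, Mrpl35, Mrpl39, Mrpl41, Mrpl47, Mrpl50, Mrpl51 and Mrps33), where 6.82% of all genes did so. Every 3xTg library was below every WT library for Mrps2 alone, where 6.00% of all genes did so. These counts keep 3xTg control replicate 3 as labelled, although its Thy1, at 9189 normalised counts, went against the label. Over 36 alternatives, which include leaving out the 3 libraries of this kind, the median of the members ran from 0.08 to 0.13.

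Mrpl41 stood at 429.6, 434, 428 and 425 normalised counts in WT and at 582, 505 and 530.4 in 3xTg on the control diet. The difference was 0.33 ± 0.09 (SE; limma adjusted p = 0.121) on the log2 scale. Mrpl11, the counterpart of the L11 protein at the base of the stalk, stood at 487, 443, 494 and 491 in WT and at 613, 548 and 531 in 3xTg, a difference of 0.23 ± 0.07 (SE; limma adjusted p = 0.126). Mrps2 stood at 462, 480.5, 542 and 457 in WT and at 432, 422 and 419 in 3xTg, a difference of -0.19 ± 0.09 (SE; limma adjusted p = 0.325). The groups did not overlap for these 3 genes, and none of the 3 passed the adjusted test. The last 3xTg value of each gene is that of control replicate 3, whose Thy1 went against the label.

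Other lists moved alongside on the control diet. Of 82 nuclear subunits of oxidative phosphorylation 72 were higher in 3xTg (median 0.12), of 8 mitochondrially encoded genes 8 (median 0.20) and of 77 cytosolic ribosomal protein genes 58 (median 0.09). The summed level of 5 of 11 lists of cell type markers did not overlap between the genotypes on this diet. All 6 oligodendrocyte markers were higher (median 0.28), with a summed level of 68996 to 79275 normalised counts in 3xTg and 49412 to 65734 in WT. All 5 astrocyte markers were higher (median 0.16; summed level 25356 to 26847 against 22049 to 23202), as were all 5 microglia markers (median 0.17; 4713 to 5197 against 3948 to 4696). Of 5 dentate granule cell markers 4 were lower (median -0.30; 3220 to 4271 against 4558 to 5208), and of 5 endothelial markers 3 (median -0.09; 2253 to 2533 against 2583 to 2750). All 6 choroid plexus markers were lower (median -0.99), with a summed level of 435 to 612 in 3xTg and 521.5 to 13064 in WT, where WT control replicate 1 alone was at 13064 and the ranges overlapped. Of the choroid plexus markers Kcnj13 and Otx2 were each at 0 in 2 of the 24 libraries, and no marker of the other lists was at 0. The part of these in the result was not tested. Without WT control replicate 1, the higher mean was in 3xTg for 62 of 76 members (median 0.08), and without 3xTg control replicate 1 for 57 of 76 (median 0.08). In bulk tissue, fewer cells of a type and less RNA per cell cannot be told apart.

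In 3xTg on the ketogenic diet 34 of 76 genes had the higher mean (median log2 difference -0.01), and on the MCT diet 43 of 76 (median 0.01). limma called none in either, against 0.155% and 0% of all genes, while unadjusted p was below 0.05 for 7 and 3 members, against 14.6% and 7.12% of all genes. edgeR called none in either, and DESeq2 called 2 on the ketogenic diet and none on the MCT diet. The shares of all genes above are limma's. DESeq2's own share is not given here, so its 2 calls are not read against a background. On the ketogenic diet Mrpl9 differed by 0.38 ± 0.10 (SE; limma adjusted p = 0.0689) and Mrpl3 by 0.29 ± 0.08 (SE; limma adjusted p = 0.0907). Mrpl36, the counterpart of a small bacterial large-subunit protein, stood at 239, 271, 269 and 256 normalised counts in WT and at 248.5, 194, 219, 204 and 191 in 3xTg on that diet, a difference of -0.29 ± 0.08 (SE; limma adjusted p = 0.0984). The 3xTg library at 248.5, alone inside the WT range, is the one whose Thy1 went against the label. On the MCT diet Mrpl3 differed by 0.27 ± 0.08 (SE; limma adjusted p = 0.382).

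Without the 3 libraries, limma called 3 members on the ketogenic diet, against 3.62% of all genes: Mrpl3 at 0.38 ± 0.06 (SE; adjusted p = 0.000196), Mrpl9 at 0.39 ± 0.10 (SE; adjusted p = 0.0232) and Mrpl36 at -0.35 ± 0.08 (SE; adjusted p = 0.0137). On the MCT diet it called 1, Mrpl3 at 0.35 ± 0.06 (SE; adjusted p = 0.00135), against 1.77% of all genes. On the control diet it called none of the members, against 1.74% of all genes.

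**Figure D3:**
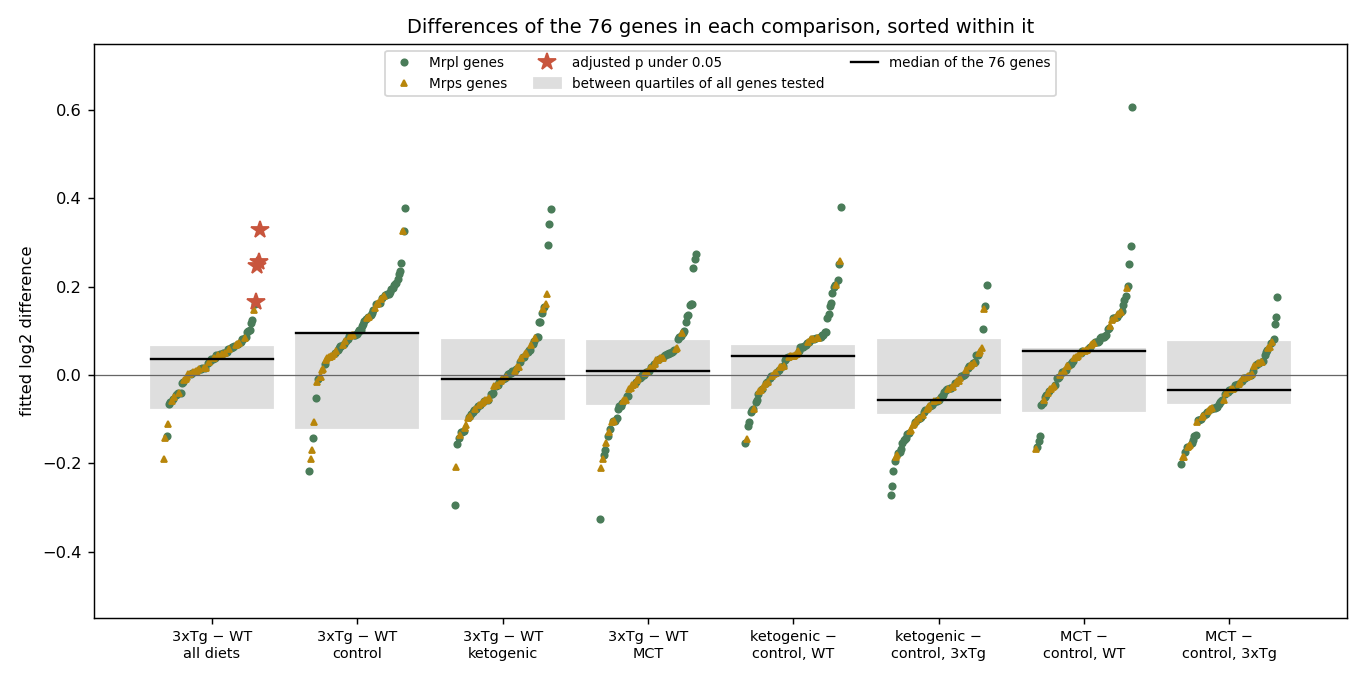
Fitted log2 difference of each of the 76 genes in 8 comparisons, sorted within each; black lines are the medians of the 76 genes, grey boxes the range between the quartiles of all 14162 genes tested, and stars the genes with an adjusted p below 0.05. The median of the members is 0.09 for 3xTg against WT on the control diet and near 0 on the other diets, and only the average over diets holds stars.

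Neither diet gave a call among these genes in either genotype or averaged over genotypes, by limma, edgeR or DESeq2, where limma called 0% of all genes in each comparison except MCT in WT, with 0.00706%. The ketogenic and MCT comparisons within a genotype share their control-diet libraries. In WT, 54 of 76 genes were higher on the ketogenic diet (median 0.04) and 56 of 76 on the MCT diet (median 0.05). In 3xTg, 19 of 76 were higher on the ketogenic diet (median -0.06) and 21 of 76 on the MCT diet (median -0.03). The share of all genes in each direction is not set beside these counts, so they do not show a shift particular to the members. Single libraries moved these medians by more than 1.5 times. In WT they were 0.03 on both diets without control replicate 1, and 0.02 on the ketogenic diet without ketogenic replicate 3. In 3xTg both were -0.01 without control replicate 1, while without control replicate 2 they were -0.09 on the ketogenic and -0.07 on the MCT diet. In 3xTg the ketogenic median was -0.03 without ketogenic replicate 5, and the MCT median -0.02 without MCT replicate 1 and -0.05 without MCT replicate 2. Unadjusted p was below 0.05 for 6 members under the ketogenic diet in WT (4.62% of all genes) and 4 under the MCT diet in WT (4.79%). In 3xTg it was so for 5 members under the ketogenic diet (6.69% of all genes) and 3 under the MCT diet (2.67%). Averaged over genotypes, 36 of 76 were higher on the ketogenic diet and 41 of 76 on the MCT diet, with medians of -0.01 and 0.00. Unadjusted p was then below 0.05 for 3 and 2 members, against 4.99% and 4.24% of all genes.

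Members with the highest or lowest statistics under the diets are given next. On the ketogenic diet in WT the lowest were Mrpl38 (log2 difference -0.08) and Mrpl54 (-0.15). In 3xTg on that diet the highest were Mrps11 (0.15) and Mrpl9 (0.16). On the MCT diet in WT the lowest were Mrpl38 (-0.14) and Mrps12 (-0.17). The members at the other end of each follow. Mrpl32, a protein matured by the inner-membrane m-AAA protease, stood at 354, 371, 377 and 325 normalised counts in WT on the control diet and at 375, 450.4, 487 and 394 on the ketogenic diet, a log2 difference of 0.25 ± 0.09 (SE; limma adjusted p = 0.983). Mrps33, a mitochondria-specific protein of the small subunit, averaged 167 ± 21.6 on the control and 199 ± 9.23 on the ketogenic diet in WT (SD, n = 4 each; limma adjusted p = 0.983). In 3xTg, Mrpl4 averaged 318 ± 26.4 (SD, n = 3) on the control diet and 268 ± 32.2 (SD, n = 5) on the ketogenic diet (limma adjusted p = 0.724). Mrpl36 averaged 255 ± 23.2 (SD, n = 3) and 211 ± 23.4 (SD, n = 5) in the same comparison, a log2 difference of -0.27 ± 0.09 (SE; limma adjusted p = 0.724). On the MCT diet in WT, Mrpl23 averaged 52.0 ± 11.4, against 33.6 ± 6.01 on the control diet (SD, n = 4 each; limma adjusted p = 0.989). Mrpl48 differed by 0.29 ± 0.12 in the same comparison (SE; limma adjusted p = 0.989). On the MCT diet in 3xTg, Mrpl2, counterpart of a bacterial protein near the peptidyl transferase centre, differed by -0.20 ± 0.09, Mrpl11 by -0.15 ± 0.07, Mrpl3 by 0.13 ± 0.09 and Mrpl48 by 0.18 ± 0.13 (SE; limma adjusted p = 0.999 for each).

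The difference in diet response between the genotypes was tested directly. For the ketogenic diet, 58 of 76 genes had a lower response in 3xTg than in WT (median -0.10, against 0.00 over all genes), and for the MCT diet 62 of 76 (median -0.08, against 0.01). Without 3xTg control replicate 1 the MCT median was -0.05. No member and no gene passed limma in either, with lowest adjusted p among members of 0.724 and 1.0, and 5 and 6 members had an unadjusted p below 0.05, against 6.68% and 2.78% of all genes. Neither edgeR nor DESeq2 called a member. The lowest by limma's statistic was Mrpl36 under the ketogenic diet, at -0.48 ± 0.13 (SE; limma adjusted p = 0.724): its mean was 224 on the control and 259 on the ketogenic diet in WT, and 255 and 211 in 3xTg. Nuclear oxidative phosphorylation genes had 77 of 82 lower in the ketogenic comparison (median -0.16) and cytosolic ribosomal protein genes 67 of 77 (median -0.15).

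Library by library, the members as a group varied little. Each gene was set against its own mean log2 value over the 24 libraries. The median of these deviations ran from -0.09 to 0.13 on the log2 scale, with a pooled within-group SD of 0.05. The highest was 3xTg control replicate 1, with 67 of 76 genes above their own median, and the lowest WT control replicate 1, with 8 of 76, followed by 3xTg ketogenic replicate 5, with 14 of 76. In 3xTg ketogenic replicate 5 the nuclear oxidative phosphorylation genes were at -0.23 and the cytosolic ribosomal protein genes at -0.30. The group means were -0.05 ± 0.04 in WT on the control diet (SD, n = 4) and 0.06 ± 0.07 in 3xTg on the control diet (SD, n = 3), and between 0.00 and 0.01 in the other groups. Of the 76 genes, 30 had their highest group mean in 3xTg on the control diet and 35 their lowest in WT on the control diet.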

How the data were processed

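Reads from polyA RNA libraries had been trimmed with Trimmomatic and aligned with STAR to GRCm38, per the submitters' processing notes (counter, annotation and scaling tool: not given in the sources used here). Deposited by the authors was 1 table of 24 libraries, whose values are a signal, counts normalised per library. All values came out as whole reads within a tolerance of 0.01, and 26 rows carry names altered to dates and were not matched to genes. The main test was limma 3.58.1 (R 4.3.3, trend, two-sided) on log2(normalised count + 1), with 1 mean for each of 6 groups, over genes with 10 or more in at least 3 libraries. Fold changes are on that scale, which understates low genes. Benjamini-Hochberg adjustment covered all 14162 genes, and adjusted p below 0.05 was a call. For the genotype comparison limma called 1147 genes, and on recovered reads edgeR 4.0.16 called 1214 and DESeq2 1.42.0 called 1420. Named members were those called, else some or all of the 2 highest and 2 lowest by limma's statistic. Also named were the 3 highest and lowest levels, those failing the filter and those fixed by role. Members and lists were chosen with earlier results of these data known. No 2 libraries of a group were copies (chi-square of reads at least 2.04 per degree of freedom). The scripts were tested on simulated data. Sequences are RefSeq's. Part of the model's genotype is not reported here.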

Additional observations from a re-analysis of the deposited data

Results flagged for a closer look

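In 6 cases 1 library stood far from the others of its group for a named member. Examined were 110 combinations of a measure and a group of 4 or 5 libraries. The measures were 21 genes and the members' median deviation, and chance alone flags about 1 in 20, or 5.5. Mrpl48 in WT control replicate 3 was at 620.6 normalised counts, and the other 3 libraries at 459 to 465.9. Mrpl11 in WT control replicate 2 was at 442.6, and the others at 487 to 494. Mrpl23 in 3xTg ketogenic replicate 3 was at 22.4, and the others at 50.9 to 58.0. Mrpl38, a protein of the central protuberance, was at 337.6 in 3xTg ketogenic replicate 4, with the others at 367 to 379, and at 404.5 in 3xTg MCT replicate 3, with the others at 385 to 388. Mrpl54 in 3xTg MCT replicate 2 was at 112.8, and the others at 103.3 to 103.9.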

How the results depend on the processing

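Over the alternatives run no called result changed direction, and Mrpl3, Mrpl48 and Mrpl9 kept their call averaged over diets in all 35, with highest adjusted p of 0.0102, 0.0251 and 0.0402. Members called in that comparison numbered 4 under 0.5 or 5 as pseudocount, no filter, a mean filter of 50, TMM factors, quantile normalisation, edgeR and DESeq2, 7 with library weights, and 3 to 8 when leaving out 1 library. With the replicate number as a block 6 were called, and the median for the MCT diet in 3xTg was -0.06, and for the ketogenic diet -0.04. Deviations of same-numbered libraries correlated from -0.26 to 0.25, with 11 of 55 pairs over 0.1. Among pairs with other numbers 29 of 184 were over 0.1. These correlations cannot settle whether the numbers pair the samples, since a pairing that moves few genes would leave them low. On the control diet DESeq2 called 1. On the ketogenic diet 3 were called without the 3 libraries whose Thy1 went against the label, 2 by DESeq2, and 0 to 3 when leaving out 1 library (3 without 3xTg ketogenic replicate 1, 2 without WT MCT replicate 2). On the MCT diet 1 was called without the 3 libraries and 0 to 1 when leaving out 1 library (1 without WT MCT replicate 2). The median for the ketogenic diet in 3xTg ran from -0.09 to -0.01 (-0.0885 to -0.00895), the latter without 3xTg control replicate 1. Medians of the members within 0.01 of 0 changed sign under some alternatives: the main sign was kept in 30 of 36 for genotype on the ketogenic diet, 33 on the MCT diet, and 30 and 27 for the ketogenic and MCT diets averaged over genotypes. The counts of members called in this section are given without the share of all genes under each alternative. A change in them is therefore not read as a result about the members. All genes called averaged over diets fell from 1147 to 576 without 3xTg control replicate 1. The cause was not tested.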

Other observations

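Head-to-head partners did not always differ in the same direction between the genotypes, averaged over diets. Mrps12 differed by -0.19 ± 0.08 on the log2 scale and its partner Sars2 by 0.11 ± 0.08, and Mrpl51 by 0.10 ± 0.04 and its partner Ncapd2, a condensin subunit gene, by -0.15 ± 0.06 (SE). None of these 4 passed limma, with adjusted p of 0.118, 0.437, 0.107 and 0.117. Mrpl41 passed (adjusted p = 0.0320), and Pnpla7, which starts 935 bases away, did not (0.08 ± 0.07; limma adjusted p = 0.497). These pairs were picked after their values were seen.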
